A study of Mus musculus with 2 samples.

Results

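Interferon-responsive microglia were the 162 microglia, of 5414 in all, in which 5 interferon-induced genes took the largest share of the cell's transcripts. The 5 genes were Ifit2, Ifit3, Isg15, Rtp4 and Usp18. The score was their unique molecular identifiers (UMIs, tags that count captured RNA molecules) per 10000 UMIs of the cell, and the members were the top 3% of microglia. Microglia were defined first, among 16636 barcodes that reached 1000 UMIs and 500 detected genes with no more than 20% of UMIs from mitochondrial genes. They held at least 5 UMIs of P2ry12, Tmem119, Cx3cr1 and Siglech together, at most 1 of the border macrophage genes Mrc1, Pf4 and F13a1, and at most 2 for each pair of marker genes of endothelial cells, astrocytes, oligodendrocytes and neuronal progenitors. The values of the 5 scored genes chose the members, so these values are described below without a test.

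The cells came from the dentate gyrus of 30-day-old mice, profiled with the 10x Genomics droplet assay. Per the labels, controls were Nestin-Cre transgenic, Phf2+/+, and conditional knockouts (cKO) were Nestin-Cre transgenic, Phf2flox/flox, so both groups carried the Cre transgene, with 4 mice per genotype and 1 library each. The deposited matrix marks the libraries only as 1 and 2, and no source used here says which genotype either is, so no comparison of genotypes was made. Nestin-Cre acts in neural stem and progenitor cells and their progeny, whereas microglia descend from yolk sac macrophages.

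Type I interferons are secreted proteins that bind the receptor Ifnar1 and Ifnar2 and, through the kinases Jak1 and Tyk2, activate a transcription factor complex that holds Stat2 and Irf9. This complex binds interferon-stimulated response elements in promoters and switches on antiviral genes, whose products include RNA sensors, ribonucleases, GTPases and the ubiquitin-like protein Isg15. Usp18, which removes Isg15 from proteins and restrains the receptor, is a feedback inhibitor of the pathway, and Ifit2 and Ifit3 are RNA-binding antiviral proteins. Microglia with this program have been described in the brain during development, ageing, viral infection and amyloid deposition.

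The core of this response element can be read in the promoters of scored and induced genes, and is shown here because many of the genes below were higher in the same cells. The motif searched was GAAANNGAAA, read on both strands (TTTCNNTTTC on the other), with overlapping matches counted, in the 250 bases before each RefSeq transcription start (build GRCm38.p6). In the stretches below, written 5′ to 3′ along the gene's strand, capitals mark every match.
Ifit3 (chr19:34583358-34583431, plus strand): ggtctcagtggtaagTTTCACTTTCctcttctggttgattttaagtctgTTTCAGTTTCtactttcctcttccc
Isg15 (chr4:156200860-156200911, minus strand): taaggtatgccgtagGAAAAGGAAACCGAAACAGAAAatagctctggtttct
Ifit1 (chr19:34640770-34640828, plus strand): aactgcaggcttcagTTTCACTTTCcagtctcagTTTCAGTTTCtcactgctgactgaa
Cxcl10 (chr5:92349078-92349117, minus strand): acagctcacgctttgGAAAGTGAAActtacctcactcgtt
Slfn5 (chr11:82951932-82951971, plus strand): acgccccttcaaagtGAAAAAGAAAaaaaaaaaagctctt
Bst2 (chr8:71537572-71537617, minus strand): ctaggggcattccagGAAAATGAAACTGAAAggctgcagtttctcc
Stat2 (chr10:128270261-128270300, plus strand): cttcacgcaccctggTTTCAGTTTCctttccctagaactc
Irgm1 (chr11:48871421-48871465, minus strand): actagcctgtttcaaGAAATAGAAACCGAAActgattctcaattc
In Isg15, 3 overlapping matches followed each other, and the nearest ended 57 bases before the start. Of the 141 genes that were higher in members (below), 118 had a promoter in the RefSeq table, and 32 of these (27.1%) held the motif. It was found for 936 of all 27025 genes in that table (3.46%), for 312 of the 9720 tested genes it covers (3.21%), and for 2 of the 25 covered genes that were lower (8%). A match is a description of these letters and not evidence of binding. The listed windows of Ifit2, Ifitm3, Ccl12, Slfn2, Irf7, Lgals3bp and Irf9 held no match, and Rtp4 and Usp18 were not among the entries.

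The libraries held 102897659 and 107266420 UMIs in all and gave 8255 and 8381 kept cells. Of the kept barcode sequences, 23 occurred in both libraries, and none of the members did so. Members numbered 70 of 2960 microglia in library 1 (2.36%, exact Clopper-Pearson 95% interval 1.85 to 2.98%) and 92 of 2454 in library 2 (3.75%, 3.03 to 4.58%). Members had medians of 7862 and 7020 UMIs in libraries 1 and 2, and other microglia 7735 and 6874.5. Members with 5 or more scored UMIs had a median of 9002 UMIs and those with 1 or 2 a median of 6970. Mitochondrial shares had medians of 3.12% and 4.05% in members and 3.14% and 4.42% in other microglia. Scrublet marked 1 of the 162 members and 82 of the 5252 other microglia as doublets. These intervals, and those below, cover counting error only, and there was 1 library per genotype.

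Few UMIs separated many members from the rest. The 3 members just inside the threshold scored 2.17, 2.17 and 2.16 and held 1, 2 and 2 UMIs of the 5 genes. The 3 cells just outside it scored 2.15, 2.13 and 2.12 and held 1, 2 and 3 UMIs. Altogether 90 members (34 in library 1, 56 in library 2) held 1 or 2 UMIs, 34 (14 and 20) held 3 or 4, and 38 (22 and 16) held 5 or more. A cell with 1 UMI becomes a member only if it is shallow, and 22 members (4 and 18) were such cells. The 38 members with the most UMIs held 630 of the 903 scored UMIs of all members (69.8%), and the top 10 alone held 366 (40.5%). All 5 genes were found together in 12 members, and 66 members had UMIs of only 1 of them. Another 472 microglia had at least 1 scored UMI and were not members, and 4780 had 0. The share of microglia with 5 or more UMIs, a count chosen after the values were seen, was 0.743% in library 1 (0.466 to 1.12%) and 0.652% in library 2 (0.373 to 1.06%), with overlapping intervals.

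**Figure D1:**
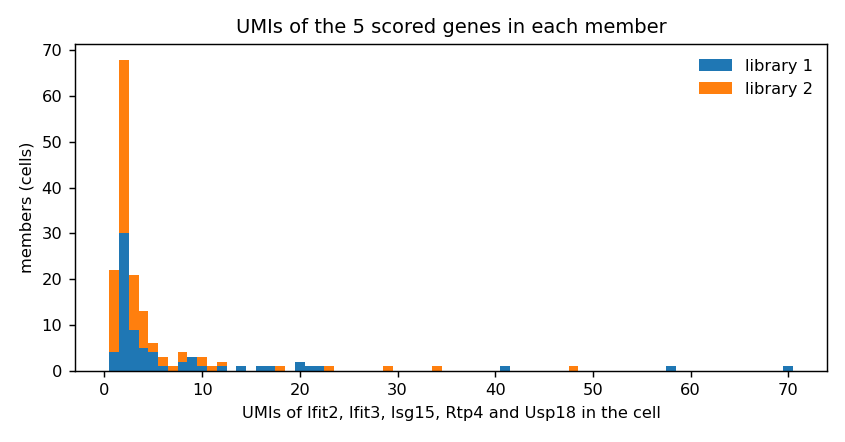
UMIs of the 5 scored genes per cell (horizontal axis) against the number of the 162 members with that count (stacked bars, library 1 and library 2). Most members hold 1 or 2 UMIs, and a tail of 38 cells reaches from 5 to 70.

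The scored genes stood far above the other microglia by construction. Levels are given as UMI counts per 1000000 UMIs (CPM) over all cells of a class in a library, with exact Poisson 95% intervals. Ifit3 (ENSMUSG00000074896, chromosome 19, 34583531 to 34588731) was at 262.2 CPM (223 to 306) in members of library 1 and 149 CPM (120.0 to 182) in library 2, against 1.27 and 1.52 CPM in other microglia. Ifit2 (ENSMUSG00000045932, chromosome 19, 34550694 to 34576419) was at 149.8 and 120.1 CPM, against 1.39 and 1.58. Isg15 (ENSMUSG00000035692, chromosome 4, 156199424 to 156200818) was at 121 and 112 CPM, against 3.77 and 4.97. Ifit3 was the gene whose 2 library values in members lay furthest apart, with intervals that did not overlap. The order turned among members with 5 or more scored UMIs (22 of 70 members and 16 of 92). They stood at 525 CPM (443 to 619) in library 1 and 610 CPM (484 to 759) in library 2. Members with 3 or 4 stood at 42.3 and 43.4 CPM and those with 1 or 2 at 54.1 and 20.6 CPM.
Rtp4 (ENSMUSG00000033355, chromosome 16, 23520291 to 23614222), which encodes a receptor transporter protein induced by interferon, was at 176 and 159.6 CPM, against 4.42 and 3.56. It had a UMI in 71.4% of members of library 1 and 59.8% of library 2, more cells than any other scored gene. Usp18 (ENSMUSG00000030107, chromosome 6, 121245906 to 121270917) was at 107 and 94.8 CPM, against 1.35 and 1.58.
Free RNA, taken from barcodes with fewer than 100 UMIs, held 12.5 and 13.9 CPM of Rtp4 and 7.54 and 7.44 CPM of Ifit3, which is more than other microglia held. The part of free RNA in the members with few UMIs was not tested. Any scored UMI was found in 11.7% of microglia at a median of 7328.5 UMIs, in 7.86% of astrocytes at 6372 UMIs, in 11.2% of oligodendrocytes at 22088 UMIs and in 14.8% of neuronal progenitors and neuroblasts at 10549.5 UMIs. In border macrophages and endothelial cells the shares were 45.2% and 66.3%.

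Choosing and measuring on separate molecules gave a smaller contrast for the same genes. When each cell's UMIs were divided at random into 2 equal parts and the top 3% were chosen on the first, 98 of the 162 cells so chosen were members on all UMIs. In the second part, 65 of them (40.1%) had a scored UMI, against 6.19% of other microglia. The 5 genes together stood at 688 CPM (599.8 to 785) in library 1 and 473 CPM (397 to 559.6) in library 2, against 16.8 and 20.3 CPM in other microglia.

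The microglial label was checked against markers outside the gate. Of 6 further microglial markers, none passed the test described below (edgeR), none did with DESeq2, and 0 were at an unadjusted p below 0.05. Csf1r, the receptor that microglia need to survive, was at 3138 and 3009 CPM in members and 3125 and 2955 CPM in others. The 28 genes of the homeostatic list, all tested, gave no call with edgeR or DESeq2 (3 at an unadjusted p below 0.05), with a median log2 difference of -0.02 against -0.04 over all tested genes. Gate genes were outside this list and were not tested. Among them, P2ry12 was at 2073 and 2315 CPM in members and 2423 and 2551 CPM in others, lower in both libraries. In members with 5 or more scored UMIs it was at 1850 and 2051 CPM. The other microglial gate genes are not described here. Border macrophage markers outside the gate (Cd163, Lyve1, Cbr2, Ms4a7) gave 0 and 1 UMI in members of the 2 libraries, with only Ms4a7 above 0. Neutrophil and T or NK cell markers were at 0 in members, and none of these 3 lists held a gene with enough UMIs to test. Markers of plasmacytoid dendritic cells, which make much interferon, summed to 5 and 2 UMIs in members (8.14 and 3.16 CPM, against 5.65 and 6.66 CPM in others), and neither of the 2 tested passed. Summed astrocyte markers were at 353 and 153 CPM in members and 194.5 and 225 CPM in others, and none of these 3 genes passed with edgeR or DESeq2 (1 at an unadjusted p below 0.05).
Among the monocyte markers, Plac8 was higher, at 29.3 and 41.1 CPM in members against 5.24 and 6.55 CPM in others, while Ly6c2 and Chil3 were at 0 in members and Ccr2 did not pass. Plac8 was in 7 members of each library, and the 3 highest held 77.8% and 84.6% of its UMIs in members. Hemoglobin transcripts moved in opposite directions in the 2 libraries. Hbb-bs, a beta-globin gene of red blood cells, was at 13207 CPM in members and 6549 in others in library 1, where 2 members held 7965 of the 8109 UMIs, and at 97.98 against 1164 CPM in library 2; edgeR called it lower and DESeq2 did not. The part of these transcripts in the results below was not tested.

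Across genes, members were compared with the 5252 other microglia on UMIs summed per library and class, with edgeR's quasi-likelihood test, library as a block and a Benjamini-Hochberg adjusted p below 0.05 as the threshold. The 5 scored genes and the gate genes were left out. Of 12572 genes tested, 141 (1.12%) were higher and 34 (0.27%) were lower in members, and the median over all genes was -0.04 on the log2 scale. Of the 141, 83 belonged to the interferon and class I presentation lists, which had 143 tested genes, and 47 belonged to no list. The sign was the same in both libraries for 138 of the 141 and 31 of the 34. DESeq2 called 90 higher genes, all among the 141, and 1 lower gene. With 1 residual degree of freedom the spread of a gene is mostly borrowed from other genes, so p-values describe these 2 libraries and not mice. When members were chosen on the first part of the UMIs and measured on the second, 74 genes were higher, 73 of them among the 141, and 7 were lower. In fits added after the values were seen, the 38 members with 5 or more scored UMIs gave 145 higher genes (1.19% of 12233 tested) and 15 lower (0.123%). Their reference was all remaining microglia, members with fewer scored UMIs included, whereas the next fit used the 5252 non-members. The 90 members with 1 or 2 gave 17 higher (0.139% of 12242) and 22 lower (0.18%), and 9 of the 17 were in the interferon and class I lists.

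**Figure D2:**
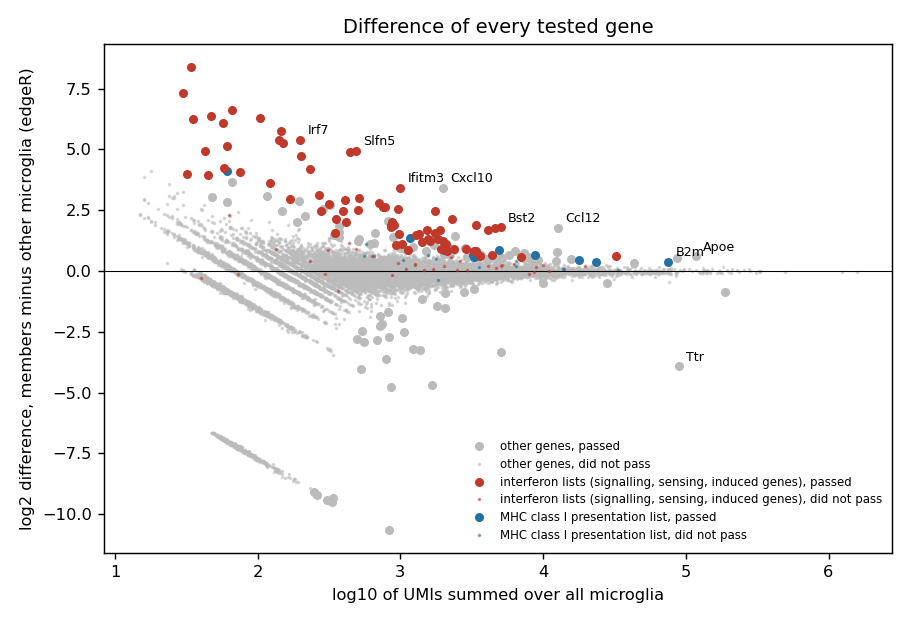
Each point is 1 of the 12572 tested genes: log10 of its UMIs over all microglia (horizontal) against its log2 difference, members minus other microglia (vertical; large points passed the test). Red points are genes of the interferon lists, blue of the class I list and grey all others. More genes passed above 0 (141) than below (34). The band below -6 holds genes with 0 UMIs in members, whose fitted values are no measured fold.

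The 12 genes with the smallest adjusted p among those higher included Cxcl10, Slfn5, Ifi204, Ifitm3, Ccl12, Bst2, Slfn2, Parp14, Trim30a, Irf7 and Lgals3bp. Cxcl10, a chemokine that draws activated T cells, had 465.8 and 314.5 CPM in members and 35.1 and 36.9 CPM in others, a log2 difference of 3.44 (SE 0.12, adjusted p = 9.73e-73). It was found in few cells: 13 members of library 1 and 12 of library 2 had a UMI, and the 3 highest held 79.4% and 81.9% of the UMIs. Slfn5, a Schlafen family gene, had 215 and 159.6 CPM in members and 5.203 and 7.17 in others (log2 4.94, SE 0.19, adjusted p = 8.89e-64). It had a UMI in 41.4% and 34.8% of members and in 3.29% and 3.64% of others.
Ifi204, a PYHIN protein that binds DNA, had 189 and 147 CPM against 4.51 and 6.89 (log2 4.91, SE 0.21). Ifitm3, a membrane protein that blocks virus entry, had 225 and 164 CPM against 16.2 and 20.3 (log2 3.42, SE 0.17). Bst2, the tetherin that holds budding virus at the cell surface, had 383 and 376 CPM against 107 and 111 (log2 1.80, SE 0.10), and was common in both classes. For all 12 genes both member values lay above both values of other microglia, and all 12 were also called by DESeq2.

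The ligands of the pathway were almost absent. Of 11 interferon genes looked for, none had enough UMIs to test. Ifnb1, the gene of interferon beta, had 10 UMIs in 7 cells of the whole data set, and all 7 were microglia. Of these, 4 UMIs lay in 2 members and 6 UMIs in 5 other microglia, too few to compare. None of 1800 endothelial cells had one, which allows a share of up to 0.167% of cells with a UMI and does not limit the share that express the gene.

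Receptor transcripts did not differ detectably. Of 5 receptor genes tested, 0 passed with edgeR or DESeq2 and 0 were at an unadjusted p below 0.05, and their log2 differences ran from -0.24 to 0.05. Ifnar1 was at 30.9 and 50.6 CPM in members and 44.3 and 51.8 in others, and Ifnar2 at 200.3 and 163 against 183 and 180. Ifngr1, of the interferon gamma receptor, was at 464 and 417 against 518 and 455 CPM, and Ifngr2 at 101 and 139 against 128 and 126. Il10rb, shared by interferon lambda and interleukin 10 receptors, was at 92.8 and 112 against 101 and 98.1 CPM. For each of the 5 genes the range of the 2 member values overlapped that of the other microglia.

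Of 13 kinases, STATs and interferon regulatory factors, 5 were higher in members and 0 were lower. Stat2 was at 58.6 and 58.5 CPM in members and 9.87 and 10.95 in others (log2 2.49, SE 0.28), and Irf9 at 78.2 and 86.9 against 36.2 and 34.6 (log2 1.22, SE 0.19). Both encode subunits of the interferon-activated complex. Irf7, the factor that amplifies interferon production, was at 119 and 61.6 CPM against 1.76 and 2.48 (log2 5.40, SE 0.35), with a UMI in 37.1% and 17.4% of members. Irf1 also passed (log2 0.64, adjusted p = 0.000405), but not with DESeq2 (adjusted p = 0.221). The kinases did not pass: Jak1 was at 238 and 262 against 258 and 249 CPM, Jak2 at 32.6 and 34.8 against 30.2 and 27.1, and Tyk2 at 24.4 and 30.03 against 22.7 and 20.8. Stat3 was at 149.8 and 193 against 174 and 194 CPM. Among 8 feedback inhibitors outside the score, 0 passed with edgeR or DESeq2, and 1, Socs3, was at an unadjusted p below 0.05. Socs3, which restrains cytokine receptors, was at 259 and 152 against 311 and 212 CPM (adjusted p = 0.0958), and the phosphatase gene Ptpn1 at 225 and 235.5 against 247 and 241.

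Of 16 genes that sense nucleic acids, 6 were higher and 0 lower. Zbp1, a sensor of Z-form nucleic acid, rose most, from 0.492 and 0.960 CPM in others to 19.5 and 31.6 CPM in members (log2 5.13, SE 0.60), on 12 and 20 UMIs. The cytosolic RNA sensors Ddx58 (RIG-I) and Ifih1 (MDA5) were at 70.0 and 72.7 against 20.1 and 18.1 CPM and at 74.9 and 53.7 against 18.6 and 18.5 CPM. Trim25, a ubiquitin ligase that acts with RIG-I, had a log2 difference of 1.51 (SE 0.23). Cgas, the DNA sensor, passed with edgeR (log2 0.92, adjusted p = 0.000286) and not with DESeq2 (adjusted p = 0.18).

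Of 28 antiviral effectors tested, 23 were higher and 0 lower, and DESeq2 called 20, with a median log2 difference of 1.95 against -0.04 over all genes. Slfn5, Ifitm3, Bst2 and Slfn2 had the smallest adjusted p of the list, and the log2 differences of Bst2 and Slfn2 (1.76) lay below its median. Ifit1, which binds viral RNA caps, was at 84.7 and 33.2 CPM against 0.819 and 0.621 in others (log2 6.31, SE 0.47). Ifit3b had 38 and 12 UMIs in members, but it is a near copy of Ifit3, so reads of the scored gene may have been counted there and its difference is uncertain.
Of 12 genes of the Isg15 conjugation pathway and interferon-induced PARP family, 8 were higher and 0 lower. Parp14 was at 205 and 226 CPM against 48.5 and 48.4 (log2 2.16, SE 0.13), Rnf213 at 142 and 90.1 against 18.1 and 21.1, Herc6, the main mouse ligase for Isg15, at 84.7 and 50.6 against 20.2 and 16.1, and Parp9 at 103 and 66.4 against 29.8 and 28.6.
Of 10 interferon-inducible GTPases, which attack vacuoles of intracellular microbes, 7 were higher and 0 lower. Irgm1 had 86.3 and 61.6 CPM against 20.4 and 16.2, Gbp2 32.6 and 19.0 against 3.20 and 3.33, and Gbp7 142 and 131 against 71.7 and 82.0. Iigp1 rose from 8 and 3 UMIs in all others to 18 and 6 UMIs in members.
Of 29 PYHIN and other induced genes, 25 were higher and 0 lower, with a median of 2.49. Lgals3bp, a secreted galectin ligand, had 311 and 272 CPM against 85.3 and 93.8 (log2 1.71, SE 0.11). Ifi207 and Ifi209 had log2 differences of 5.25 (SE 0.40) and 4.75 (SE 0.36). The Ifi200, Phf11, Trim30 and Oas genes have close copies, so single values within these families are uncertain.

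**Figure D3:**
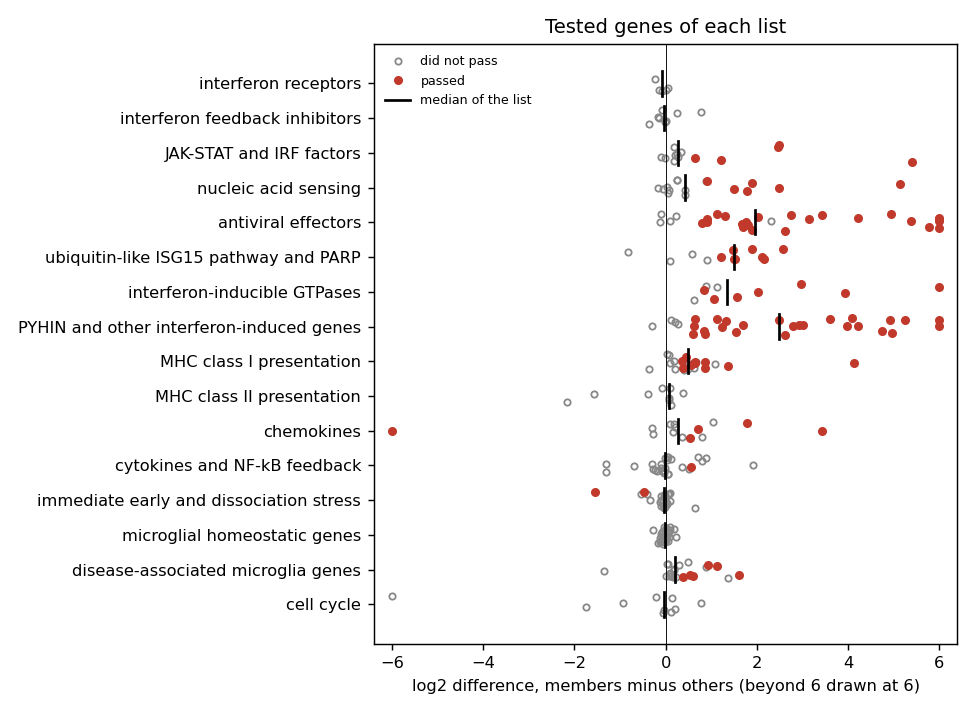
Log2 difference, members minus other microglia (horizontal), for the tested genes of each list (rows; filled points passed the test, bars are list medians, and values beyond 6 are drawn at 6). Antiviral effectors and PYHIN genes lie mostly right of 0, while receptors, feedback inhibitors, MHC class II, homeostatic and cell cycle genes hold no gene that passed.

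Genes of class I antigen presentation were higher in part. Of 23 tested, 10 were higher and 0 lower, with a median log2 difference of 0.49, and DESeq2 called 5. The 4 with the smallest adjusted p were H2-T23, a nonclassical class I gene, at 223 and 172 CPM against 114 and 104; Psme1, of the proteasome activator, at 326 and 295.5 against 201 and 196; Nlrc5, the transcriptional activator of class I genes, on 15 and 6 UMIs (log2 4.13, SE 0.66); and the peptide transporter Tap1, at 70.0 and 61.6 against 25.9 and 25.4. B2m, the class I light chain, was at 2212 and 2262 against 1681 and 1772 CPM, a log2 difference of 0.38 (SE 0.09) that also passed with DESeq2. H2-K1 and H2-D1, the classical heavy chains, had log2 differences of 0.44 and 0.37 and passed with edgeR only. Of 9 class II genes, 0 passed with edgeR or DESeq2, and 1 was at an unadjusted p below 0.05. Cd74, the invariant chain, was at 156 and 93.2 against 116 and 122 CPM, and H2-DMa at 174 and 237 against 189 and 201.

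Chemokines divided by gene. Of 14 tested, Cxcl10, Ccl12, Ccl4 and Ccl2 were higher and Cxcl2 was lower. Ccl12, a monocyte chemoattractant, was at 806 and 1095 CPM against 283 and 264 (log2 1.79, SE 0.10), with a UMI in 65.7% and 62.0% of members and 56.9% and 51.7% of others. Ccl4, which attracts monocytes and T cells, was at 2994 and 2685 against 2075 and 1872 CPM (log2 0.53, SE 0.09). Members with 5 or more scored UMIs stood at 4262 and 4963 CPM of Ccl4. Those with 3 or 4 stood at 974 and 2485 CPM, and those with 1 or 2 at 2502 and 1902 CPM. Ccl2 passed with edgeR (adjusted p = 0.0302) and not with DESeq2. Cxcl2, a neutrophil chemokine, had 0 UMIs in members and 652 and 185 in others. Summed over cells, this is at least 8.26-fold lower against a floor of 3 UMIs over all members. Within a library, the same floor gives at least 5.47-fold in library 1 and at least 2.20-fold in library 2. These bounds count UMIs and not cells, and only 52 and 48 other microglia of libraries 1 and 2 had a Cxcl2 UMI. They do not show how far the share of cells with Cxcl2 differed. The 10 other microglia with the most Cxcl2 held 69.3% of its UMIs in library 1 and 65.4% in library 2, and DESeq2 gave no call.
Of 27 cytokine and NF-kB feedback genes, only Tnf passed, as higher, beside 1.12% of all tested genes that were higher. Tnf was at 340 against 166 CPM in library 1 and 194 against 199 in library 2, so its difference was in library 1 alone. There 3 members held 125 of the 209 Tnf UMIs of members, and DESeq2 gave no call. Of 25 immediate early and dissociation stress genes, 0 were higher with edgeR (1 at an unadjusted p below 0.05), and Hspa1b (22.8 and 6.32 against 75.2 and 11.9 CPM) and Rgs1 (112 and 220 against 242 and 219 CPM) were lower with edgeR only. Rgs1 differed in library 1 alone. Hspa1b turned in sign with members set at 5% (log2 0.11) and when members were chosen and measured on separate UMIs (0.79).

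Of 22 genes of the disease-associated microglia program, 6 were higher and 0 lower with edgeR, DESeq2 called 0, and 9 higher and 1 lower were at an unadjusted p below 0.05. Apoe, a lipid carrier, was at 2730 against 2426 CPM in library 1 and 6086 against 3000 in library 2, log2 differences of 0.17 and 1.02. In library 2, members with 1 or 2 scored UMIs stood at 8697 CPM and those with 5 or more at 3011 CPM. Lpl, lipoprotein lipase, was lower in members of library 1 (21.2 against 42.3 CPM) and higher in library 2 (185 against 58.3 CPM), where 3 cells held 88 of 117 UMIs. Axl, a receptor for dying cells, was at 17.9 and 33.2 against 7.01 and 9.43 CPM. All 11 Axl UMIs of members in library 1 lay in 3 cells, and 10 of the 21 in library 2 lay in 2 cells. Csf1 was at 119 and 163 against 98.3 and 95.1 CPM. Of 10 cell cycle genes, 0 passed with edgeR or DESeq2, and 1 was at an unadjusted p below 0.05. Pcna, the DNA polymerase clamp, was at 89.6 and 129.6 against 109 and 117 CPM, and Mcm3, of the replicative helicase, at 40.7 and 31.6 against 33.2 and 32.5.

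The 6 lower genes with the smallest adjusted p are known from other cell types, and a few of the other microglia held most of their UMIs. They were Ttr and Enpp2, made by the choroid plexus, Ecrg4, also high there, the smooth muscle genes Acta2 and Tagln, and Meg3, a neuronal noncoding RNA. Ttr was at 1.63 and 335 CPM in members and 7.29 and 5043 CPM in others. In library 1, 10 cells held 11.8% of the Ttr UMIs of other microglia. In library 2, 10 cells held 92.3% of the 89313 Ttr UMIs of other microglia, and 1 cell held 21302. For Acta2, 10 cells held 80.4% and 93.7% of UMIs in other microglia, and for Meg3 89.7% and 81.0%. Ecrg4 was lower in library 2 only (4.74 against 73.7 CPM), and in library 1 it was at 3.26 CPM in members and 2.29 in others. Of the 6, DESeq2 called Meg3 alone.

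Induced genes outside the score followed the number of scored UMIs across cells. Summed over 87 interferon-induced genes that were not scored, per 10000 UMIs of the cell, members with 5 or more scored UMIs had a median of 120.2 (114 in library 1, 132 in library 2). Members with 3 or 4 had 54.3, members with 1 or 2 had 40.8, other microglia with at least 1 had 30.4 and those with 0 had 27.7. Ranges overlapped: the lowest member with 5 or more UMIs had 19.6, and the highest microglia with 0 scored UMIs had 153.5. The groups by UMI count were set after the values were seen, and no test was made between them.
Single genes differed in how they followed. Bst2 was at 624 and 1014 CPM in members with 5 or more scored UMIs, at 158 and 179 in those with 1 or 2, and at 103 and 108 in microglia with 0. Cxcl10 was at 945 and 922 CPM with 5 or more and at 13.5 and 61.7 with 1 or 2, beside 27.5 and 34.9 in microglia with 0. Ccl12 was at 1365 and 3865 CPM, then 302 and 359, beside 279 and 258. In members with 1 or 2 scored UMIs, Bst2 was above the microglia with 0 in both libraries, while Cxcl10 was below them in library 1 and above them in library 2.

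**Figure D4:**
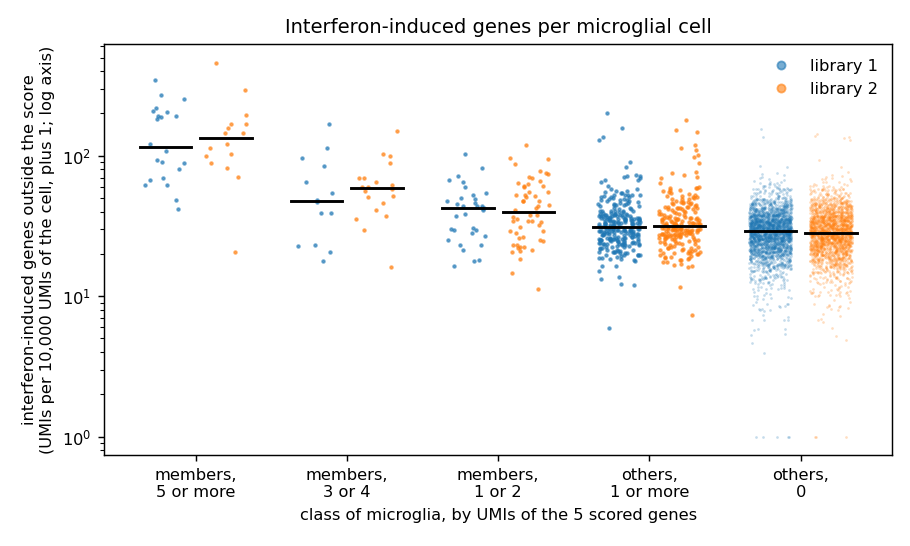
Interferon-induced genes outside the score, in UMIs per 10000 UMIs of the cell plus 1 (log axis), for each microglial cell (points) by scored UMIs and library; bars are medians. Medians fall from 120.2 in members with 5 or more scored UMIs to 27.7 in microglia with 0, and the ranges overlap.

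The genes whose UMIs per 10000 were most like the score over the 5414 microglia were Slfn5 (Pearson r = 0.72), Ifi204 (0.71), Ifit1 (0.69), Irf7 (0.67), Cmpk2 (0.66) and Ifit3b (0.64). These values are descriptive: cells share libraries and depth, and Slfn5 had a UMI in 242 cells and Cmpk2 in 25.

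The same top 3% was taken of 1800 endothelial cells, the class with the largest share of cells with a scored UMI, so that the 2 contrasts could be compared. It gave 54 high-score cells (22 and 32), in which 115 of 11611 genes were higher (0.99%) and 106 lower (0.913%). The 2 cuts lay at unlike scores: the lowest member scored 2.16 and the lowest high-score endothelial cell 8.81. A scored UMI was found in 65.3% of other endothelial cells and in 8.99% of other microglia. The part of this in the differences below was not tested. Of 12997 genes tested for a difference between the 2 contrasts, 24 (0.185%) had a higher signed log2 difference in microglia. For 1, Gdf15 (0.00769%), it was lower. A higher signed difference can come from a fall in endothelial cells, as for Tmsb10 below. The 4 with the smallest adjusted p were Slfn5, Irf7, Ifitm3 and Tmsb10.
Slfn5 was already at 579 and 416 CPM in other endothelial cells and at 718 and 637 in high-score ones, and the microglial log2 difference exceeded the endothelial one by 4.75 (SE 0.29, adjusted p = 6.31e-07, edgeR). Irf7 was at 76.3 and 55.5 CPM in other endothelial cells and 211 and 242 in high-score ones, an excess of 3.91 (SE 0.39) in microglia. Ifitm3 was at 1103 and 948 against 2531 and 2494 CPM, an excess of 2.40 (SE 0.25). For these 3 genes every microglial value, members included, lay below the endothelial values of the high-score cells, and other microglia lay lowest.
Tmsb10, an actin-binding protein that is in no interferon list, was lower in high-score endothelial cells (634 and 580 against 1358 and 1487 CPM) and did not pass in members (164 and 180.2 against 119 and 146 CPM), an excess of 1.89 (SE 0.21) in microglia. Without the library block, 6 genes differed between the 2 contrasts.

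**Figure D5:**
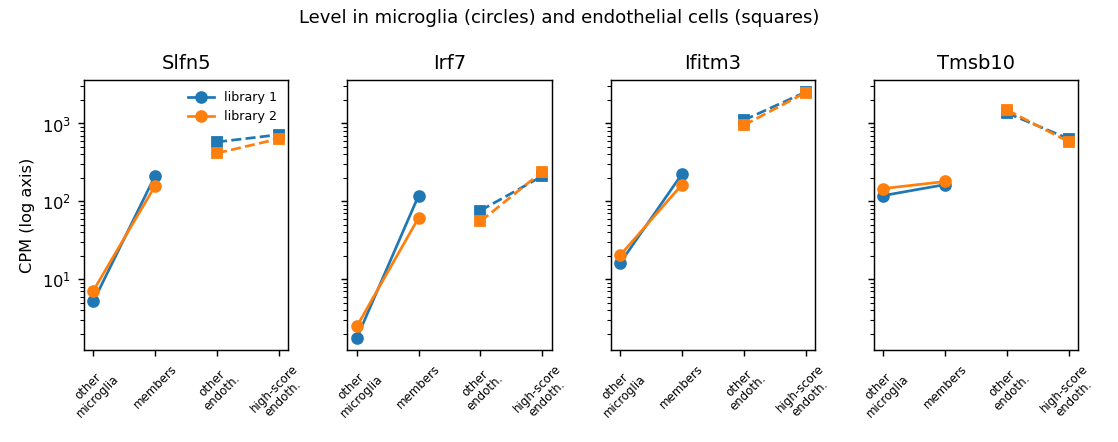
CPM (log axis) of Slfn5, Irf7, Ifitm3 and Tmsb10 in other microglia and members (circles) and in other and high-score endothelial cells (squares), with a line joining the classes of each library. Slfn5 rises from 5.203 and 7.17 CPM in other microglia to 215 and 159.6 in members, while endothelial cells stay between 416 and 718.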

How the data were processed

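The authors deposited UMI counts, without normalization or cell filtering, as a matrix of 32285 genes that pools both libraries. The submitters' processing notes name Cell Ranger 4.0.0, Scanpy 1.7.0 and build mm10. Barcodes were filtered and gated as stated in the report, ties in score were broken by more scored UMIs, and CPM were computed from summed counts. Doublets were marked with Scrublet in scanpy 1.11.5 and kept. Endothelial cells held at least 5 UMIs of Cldn5 and Flt1, and at most 1 UMI of the microglial and of the border macrophage gate genes.

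UMI sums per library and class entered a 2-sided quasi-likelihood test (edgeR 4.0.16, R 4.3.3) after filterByExpr and TMM scaling, adjusted by Benjamini-Hochberg over all genes. DESeq2 1.42.0 was an alternative. On simulated counts for 12281 genes of the comparison of members with others, 46% of genes changed 2-fold and 80% of those changed 4-fold were recovered, with 1 false call. These counts had 1 common spread, and the gathering of UMIs in few cells was not simulated. They therefore give no error rate for the genes called in the data. SE were derived from the F statistic. Gene positions are from GENCODE vM21 (GRCm38).

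Members and lists were chosen with earlier results of these data known. Named genes were the scored genes, the 12 higher and 6 lower genes with the smallest adjusted p, up to 4 per list that passed (else the 2 with most UMIs), the receptor, kinase and STAT genes, 4 genes of the endothelial comparison and the 6 most like the score; B2m, H2-K1, H2-D1, Irf1, Cgas, Ccl2, Ccr2 and Ms4a7 were added after values were seen. Mx1, Mx2, Oas1b, Cxcl11 and Clec7a were not analysed here. Values of some genes that this rule names are not reported here.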

Additional observations from a re-analysis of the deposited data

Results flagged for a closer look

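The difference between high-score and other cells was itself tested between microglia and endothelial cells. With the edgeR interaction term, 25 genes passed (adjusted p below 0.05). The signed log2 difference was higher in microglia for 24 of them and lower for 1. The 4 with the smallest adjusted p were Slfn5, with a signed log2 difference higher by 4.75 in microglia, Irf7, higher by 3.91, Ifitm3, higher by 2.40, and Tmsb10, higher by 1.89. For Tmsb10 the log2 difference was -1.28 in endothelial cells, where it was lower in high-score cells. In microglia it was 0.38 and did not pass. The cuts in the 2 cell types lay at unlike scores, as given above. The count of 25 depends on the processing, as given in the next part. On simulated counts with 1 common spread, the test recovered 22% of 2-fold and 66% of 4-fold differences. It made 6 false calls among 12271 unchanged genes. The gathering of UMIs in few cells was not simulated, so these false calls give no error rate for the 25.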

How the results depend on the processing

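The counts of 141 higher and 34 lower genes moved by more than 1.5 times in these settings. DESeq2 gave 90 and 1, the model with no replicate block (library left out) 84 and 1, and choosing on the first part of the UMIs and measuring on the second 74 and 7. Members set at 1% and 5% gave 15 and 55 lower genes. In fits added after the data were seen, members with 5 or more scored UMIs, against all remaining microglia with weaker members included, gave 15 lower genes. Members with 1 or 2, against non-members, gave 17 higher and 22 lower. Other settings (library totals, no filter, doublets, mitochondrial limit, depth, raw UMIs as score, microglia with 0 scored UMIs) gave 123 to 143 higher and 23 to 40 lower. The 25 genes of the endothelial comparison became 16 with library totals, 88 with no filter and 6 with no replicate block. The labels give each genotype 1 sample, so the block is the library, and no pairing by animal exists. Shares became 0.743% and 0.652% with a minimum of 5 scored UMIs, and after thinning every cell to 1000 UMIs 2.53% of microglia in library 2 and 2.20% in library 1 kept a scored UMI. The 3% rule could not be applied after thinning, since only 127 cells kept one. Single libraries gave values without a test. Leaving out either library, the log2 differences ran from -3.94 to 0.50 for Ecrg4, -0.033 to 1.04 for Tnf, -1.11 to 0.0054 for Rgs1 and -0.996 to 1.67 for Lpl; Ecrg4 and Lpl turned without library 2, Tnf and Rgs1 without library 1. Signs also turned for Hspa1b at 5% (0.11) and with separate UMIs (0.79), for Apoe at 1% (-0.041), and for Tnf (-0.53) and Csf1 (-0.19) in members with 1 or 2 UMIs. The causes were not tested.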

Other observations

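Of the 47 higher genes in no list, 5 are given here, chosen after their values were seen. Fcgr1, the high-affinity receptor for IgG, was at 535.8 and 428 CPM in members and 279 and 288 in other microglia (log2 0.77, SE 0.10, edgeR adjusted p = 5.01e-11). Cd47, the signal that restrains phagocytosis, was at 298 and 259 against 171 and 162 CPM. Fgl2, a fibrinogen-like protein, was at 52.1 and 31.6 against 5.57 and 7.397 CPM, and Sdc3, a syndecan, at 63.5 and 82.2 against 16.7 and 18.1 CPM. Sp110, a nuclear body protein, was at 158 and 126 against 55.1 and 50.4 CPM.

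Cells with 10 or more scored UMIs were found in several classes: 21 microglia (12 and 9), 67 of 1800 endothelial cells, 7 of 332 border macrophages, 2 of 1680 astrocytes and 1 of 606 oligodendrocytes. The oligodendrocyte, in library 2, held 178 scored UMIs, more than any microglial cell (highest 70). They were 129 of Ifit3, 35 of Ifit2, 12 of Usp18, 2 of Rtp4 and 0 of Isg15, beside 68 UMIs of Ifit1. It had 23663 UMIs in all, with 72 of Ermn and 52 of Mog, and 0 of the microglial gate genes.

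Ifit2 stood apart from the other scored genes in neuronal progenitors and neuroblasts. It had a UMI in 14.4% and 11.1% of these cells (15.7 and 12.96 CPM), whereas the other 4 genes had one in 0.306 to 1.33%.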
